A study of Mus musculus with 29 samples.

Results

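Gab1, Jade1, Sfmbt2, Slc38a4 and Smoc1 are mouse genes known to be imprinted through H3K27me3 that the egg passes on to the embryo. They were grouped with Slc38a1 and Slc38a2, which lie beside Slc38a4 on chromosome 15, and with Rbms1, Etv6 and Runx1, candidates for the same kind of imprinting. The rule that takes them uses their names and RefSeq positions and no measured value, and they were picked with earlier results of these data known. They make 10 of the 20558 protein-coding genes on chromosomes 1 to 19. For each gene, the deposited types of all segments over the gene body and over 200 kb on each side were read. The body with both flanks is called the window below.

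The study profiled H2AK119ub (H2Aub), with some H3K27me3, by CUT&RUN, which frees the DNA near a histone mark with a nuclease guided by an antibody. Its 29 libraries fall into 16 groups, 24 libraries for H2Aub and 5 for H3K27me3. Those for H2Aub with loss of maternal Eed came from Gdf9-Eed (fl/fl) mothers, in which Cre under the promoter of the oocyte gene Gdf9 deletes Eed in growing oocytes. They were germinal vesicle (GV) oocytes, 4-cell embryos and morulae, with 2 libraries each, on a B6/129 mixed background, and the embryos had WT sires of the PWK strain. Manipulation of PR-DUB, a complex that removes ubiquitin from H2A, was labelled OE or CTR in 4-cell embryos of WT B6/DBA mothers and PWK sires, and each label had 1 H2Aub and 2 H3K27me3 libraries. The other H2Aub libraries, titled WT, were GV oocytes (2), metaphase II oocytes (2), 1-cell embryos (2), 2-cell embryos (3), 4-cell embryos (2), morulae (2), inner cell mass (1) and E6.5 epiblast (2). Of these, the GV oocytes carried Eed (fl/fl), and the 4-cell embryos, the morulae and 2 of the 2-cell libraries came from Eed (fl/fl) mothers, all B6/129 mixed. The rest were WT on B6/DBA, and every embryo had a PWK sire. The last library measured H3K27me3 in WT GV oocytes of B6/DBA. Where the labels give the material of a library, it was a pool of 20 to 300 oocytes, embryos or inner cell masses, or for the epiblast a single one.

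The values analysed here come from 1 segmentation of the whole series by ChromHMM, a program that assigns each stretch of a genome to a hidden state. Each segment carries a type of H2Aub numbered 1 to 5, on the mm10 build. What each type stands for, and which libraries went into the model, is not given in the sources used here, so the types are named by number only. The segmentation has no value per library, and its depth is unknown. No value below has a replicate error or a test. Stages, Eed genotypes and PR-DUB groups were not compared, and H3K27me3 at these genes was not analysed here.

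In imprinting of this kind, the copy of a gene inherited from the mother stays silent and the copy inherited from the father is transcribed. Polycomb repressive complex 2, which needs Eed, writes H3K27me3 during oocyte growth. Polycomb repressive complex 1 writes the mark H2Aub. Such an imprint can be set without DNA methylation of the silent copy in the oocyte, and for several of these genes it lasts in the placenta. A segmentation that does not separate the parental copies cannot show which of them carries a type.

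Type 4 covered most of the body of 9 of the 10 genes, while 14.0% of all protein-coding genes were mostly type 4. A gene is called mostly of the type with the largest share of its body, even below 50%. Sfmbt2 was the exception and had more type 5, and 9.53% of protein-coding genes were mostly of that type. None of the 10 was mostly type 1, 2 or 3, types that held 37.2%, 5.44% and 33.8% of protein-coding genes. Slc38a1, Slc38a2 and Etv6 lay wholly in type 4, which was so for 9.50% of protein-coding genes. Both ends of the body were in type 4 for 6 genes, against 10.3% of all. Most of these genes are long: 9 of the 10 measure 60 to 250 kb, and 8 of those 9 were mostly type 4, against 16.6% of protein-coding genes of that length. That range of lengths was set after the values had been seen.

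**Figure D1:**
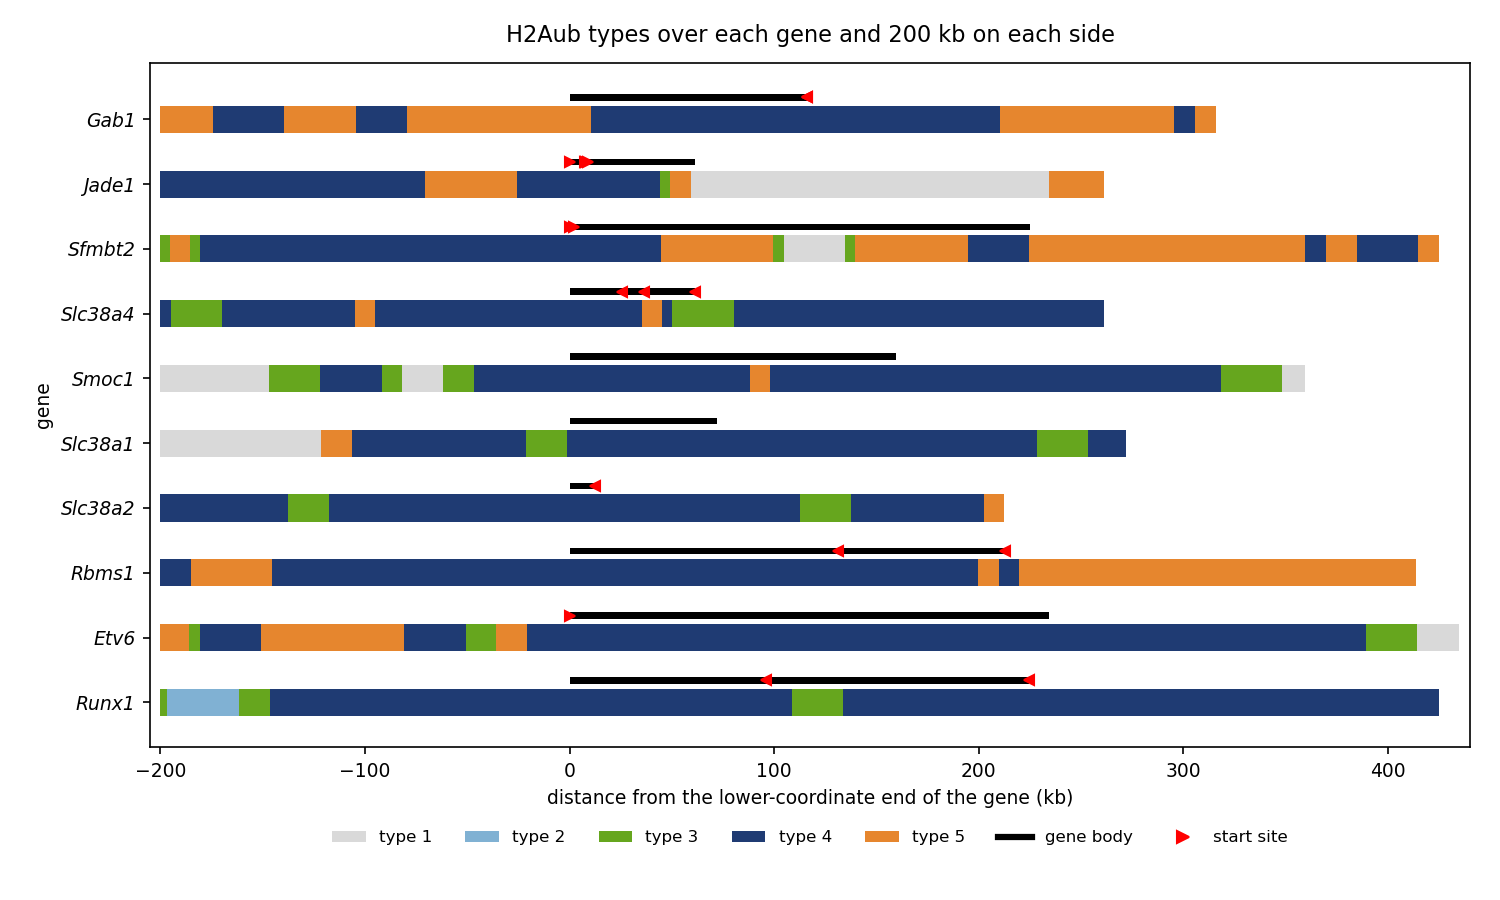
Types along the body and 200 kb on each side of the 10 genes, 1 row per gene in the order Gab1 to Runx1. The x axis gives the distance in kb from the lower end of the gene body, colours give types 1 to 5, and the marked stretch is the body. Type 4 lies over most of the body in 9 rows, and in the Sfmbt2 row types 5, 3 and 1 break the body up.

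Type 4 also extended beyond the bodies. Its median share of the window was 69.7% over the 10 genes, with a lowest value of 43.2% for Jade1 and a highest of 87.4% for Runx1. The 5 imprinted genes had a lower median, 52.3%, than Slc38a1 with Slc38a2 (78.7%) and than Rbms1, Etv6 and Runx1 (74.1%). The median over all protein-coding genes was 6.63%, and over those that are themselves mostly type 4 it was 42.8%. The window includes the body, with a median length of 138 kb for the 10 genes and 17.9 kb for genes mostly type 4. Over the flanks alone the median type 4 share was 58.9% for the 10 genes. It was 6.25% over all protein-coding genes and 37.9% over those mostly type 4. In 8 of the 10 genes, 3 of the 5 imprinted genes and all of the others, at least 50% of the window was type 4. That was so for 7.88% of protein-coding genes, 9.10% of those of 60 to 250 kb and 37.4% of those mostly type 4. With 500 kb on each side the count was 4 of the 10, against 5.17% of protein-coding genes. A share as large as that of Jade1 was reached by 11.5% of protein-coding genes, one as large as that of Slc38a2 by 0.457% and one as large as that of Runx1 by 0.438%. Type 2 was missing from 9 of the 10 windows, and it was missing from 49.8% of windows of protein-coding genes. Type 1 was missing from 5 windows (Gab1, Slc38a4, Slc38a2, Rbms1 and Runx1), against 11.0% of all.

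**Figure D2:**
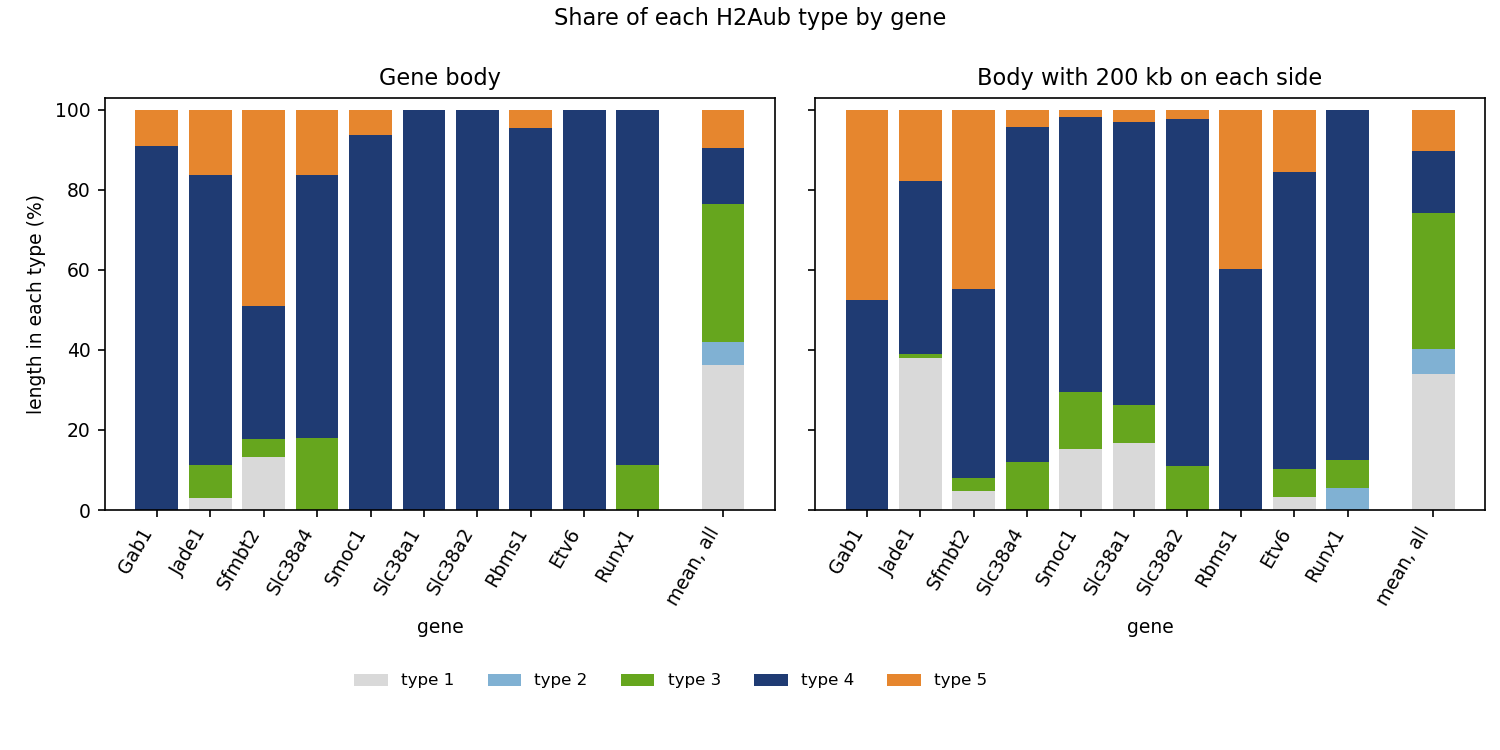
Length in each type as a percent, over the gene body (left) and over the body with 200 kb on each side (right). Each bar is 1 gene, the last bar is the mean over the 20558 protein-coding genes, and colours give types 1 to 5. Type 4 fills 100% of the body bars of Slc38a1, Slc38a2 and Etv6, and the mean body bar of all protein-coding genes has 14.0%.

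Gab1 encodes an adaptor protein that passes on signals of receptor tyrosine kinases and is needed in the placenta. Its body on chr8:80764431-80880519 began, at the lower end, in 10.6 kb of type 5 and lay otherwise in a type 4 segment of 200 kb (chr8:80775001-80975000). The segments on either side of that one were type 5, of 90 kb below and 85 kb above. Only types 4 and 5 occurred in the window, in 9 segments that alternated across 8 borders, with 52.3% of the window in type 4 and 47.7% in type 5. Both annotated start sites of Gab1 lay in the 200 kb segment, about 94.5 kb from its higher border. All 3 protein-coding neighbours in the window were mostly type 5. They were Smarca5, an ATPase of chromatin remodelling complexes, Usp38, a deubiquitinase, and Frem3, whose body was 53.9% type 5 and 46.1% type 4.

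Jade1 encodes a subunit of the HBO1 histone acetyltransferase complex. On chr3:41555734-41616864 the body showed 4 types in order along the gene. All 4 start sites lay in the same type 4 segment of 70 kb, which held 44.3 kb of the body. Beyond it came 5 kb of type 3, 10 kb of type 5 and the start of a type 1 segment of 175 kb. The flanks differed, with 77.5% type 4 below the gene and none above it. The protein-coding neighbours Sclt1, which encodes a centriole protein and lies 9.84 kb above Jade1, and D3Ertd751e were mostly type 1. Below Jade1 the long noncoding RNA genes Platr4 and 2400006E01Rik, named after their values had been seen, lay in a type 5 segment of 45 kb between 2 segments of type 4.

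Sfmbt2 encodes a Polycomb group protein with MBT domains that trophoblast needs, and one of its introns hosts a large cluster of miRNA genes. The body on chr2:10370440-10595253 was 49.0% type 5, 33.2% type 4, 13.3% type 1 and 4.45% type 3. Both start sites lay in a type 4 segment of 225 kb (chr2:10190001-10415000), of which 44.6 kb belonged to the gene. After it the order of types was the same read from either side of a central type 1 segment of 30 kb. On each side of that segment came 5 kb of type 3, then 55 kb of type 5, then type 4. The flank below the gene was 90.2% type 4, and the flank above it 20%. Itih5, the only protein-coding neighbour in the window, encodes a heavy chain of an inter-alpha-trypsin inhibitor and was 80.6% type 4.

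The middle of Sfmbt2 is where the miRNA genes lie. The annotation placed 72 miRNA genes within 51.6 kb, of 1136 on the segmented chromosomes. Of the 72, 37 lay in type 1, 22 in type 5, 13 in type 3 and none in type 4. Of all 1136, type 1 held 28.3%, type 5 held 8.45%, type 3 held 39.8% and type 4 held 14.8%. The 72 genes lie in 5 segments next to each other, so their types follow from their place in the cluster and they are not separate cases. By name, 29 belonged to the Mir669 family, 23 to Mir466, 14 to Mir467 and 5 to Mir297. Members of such families can resemble each other, which was not measured here. How reads with more than one possible place were treated is not given in the sources used here, and their part in the types of this stretch was not tested.

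Slc38a4 encodes an amino acid transporter of the SLC38 family and is expressed in the placenta. Its 3 annotated start sites lay in 3 different types, in the order 3, 5 and 4 along the direction of transcription. Among protein-coding genes with at least 3 start sites, 2.90% (19 of 656) had sites in at least 3 types. The outermost site, at position 97055956 of chromosome 15, was in a type 3 segment of 30 kb. The middle site, at 97031213, was in a type 5 segment of 10 kb, only 1.21 kb from its border and so less than 1 bin of 5 kb away. The innermost site, at 97020359, was in a type 4 segment of 130 kb. The 3 RefSeq windows of 300 bases hold 250 bases before each start site and 50 after it (build GRCm38.p6, the same as mm10). They are printed because, of the 8 genes with an annotated site, only this one had sites in more than 1 type. Only 6 of those 8 had at least 2 sites. Among protein-coding genes with at least 2 sites, 12.5% (332 of 2660) had sites in at least 2 types. Capitals mark CG dinucleotides.
Slc38a4 start site 1, chr15:97055907-97056206, minus strand: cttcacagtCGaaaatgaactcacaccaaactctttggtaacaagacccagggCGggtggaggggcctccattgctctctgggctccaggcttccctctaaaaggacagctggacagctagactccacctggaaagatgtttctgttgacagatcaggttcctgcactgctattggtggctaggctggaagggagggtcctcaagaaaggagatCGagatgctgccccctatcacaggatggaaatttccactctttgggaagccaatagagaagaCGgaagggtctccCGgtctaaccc
Slc38a4 start site 2, chr15:97031164-97031463, minus strand: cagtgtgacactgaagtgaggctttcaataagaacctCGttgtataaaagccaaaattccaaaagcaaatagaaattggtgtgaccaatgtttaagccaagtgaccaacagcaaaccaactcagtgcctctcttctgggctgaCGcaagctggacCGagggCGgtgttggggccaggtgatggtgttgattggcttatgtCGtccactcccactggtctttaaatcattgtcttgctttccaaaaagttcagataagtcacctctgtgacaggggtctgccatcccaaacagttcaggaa
Slc38a4 start site 3, chr15:97020310-97020609, minus strand: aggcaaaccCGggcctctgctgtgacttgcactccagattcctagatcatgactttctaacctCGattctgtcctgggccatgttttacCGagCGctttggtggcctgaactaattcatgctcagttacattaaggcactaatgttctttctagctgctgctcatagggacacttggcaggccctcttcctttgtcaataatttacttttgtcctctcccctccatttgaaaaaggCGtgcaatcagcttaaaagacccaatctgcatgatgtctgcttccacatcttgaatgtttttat
All 3 windows hold 5 CG dinucleotides. Their CpG observed over expected ratios, the number of CG divided by the number expected from the C and G content, were 0.238, 0.306 and 0.335 in that order, below the median of 0.586 over the windows of protein-coding genes. The window of the middle site holds the motif TATAAA, searched on both strands, which no other window of these 10 genes holds. TATAAA occurred in 12.7% of the windows of protein-coding genes, 13.6% of all windows and 32% of those of protein-coding genes in type 5, the type of the middle site. Within its own type, the ratio of 0.306 at that site was above the median of 0.206. The ratios of the outermost and innermost sites were below the medians of their types, 0.653 for type 3 and 0.481 for type 4.

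Around Slc38a4 (body chr15:96994816-97055956), the window was 83.7% type 4, and 0.574% of protein-coding genes had as much. The outer start site and its type 3 segment stood between type 4 segments, 1 of 5 kb inside the gene and 1 of 290 kb upstream of it. The upstream segment held the long noncoding RNA gene Gm32885 whole, named after its values had been seen, and also Amigo2, which encodes a cell adhesion protein of neurons. Amigo2 was 100% type 4, and Pced1b, the other protein-coding neighbour apart from members, was 85.1% type 4.

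Slc38a1 and Slc38a2 encode neutral amino acid transporters of the same family. Both genes lay whole in 1 type 4 segment of 230 kb (chr15:96570001-96800000), at chr15:96571418-96643438 and chr15:96687392-96699728, so their types are not independent of each other. Type 4 made up 70.6% of the window of Slc38a1 and 86.7% of that of Slc38a2. At its lower end, the window of Slc38a1 reached type 1, over Arid2, a subunit of a SWI/SNF chromatin remodelling complex, and Scaf11, a factor of RNA splicing. A predicted gene there, Gm41408, was type 5. The start of Slc38a2 lay 100.3 kb from the nearest border, and its promoter window is printed for contrast with those of Slc38a4, again with CG in capitals.
Slc38a2 start site 1, chr15:96699679-96699978, minus strand: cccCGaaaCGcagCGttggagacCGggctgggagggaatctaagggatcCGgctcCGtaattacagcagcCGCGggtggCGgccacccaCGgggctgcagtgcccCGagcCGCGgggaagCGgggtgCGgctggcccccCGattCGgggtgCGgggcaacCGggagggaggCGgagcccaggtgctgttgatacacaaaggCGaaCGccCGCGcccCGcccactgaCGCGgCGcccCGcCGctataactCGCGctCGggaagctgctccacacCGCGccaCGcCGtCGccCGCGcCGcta
It holds 41 CG dinucleotides in 300 bases, with a ratio of 1.03. This CG-rich window and the innermost of the 3 windows of Slc38a4 both lay in type 4, while the other windows of Slc38a4 lay in types 3 and 5.

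**Figure D3:**
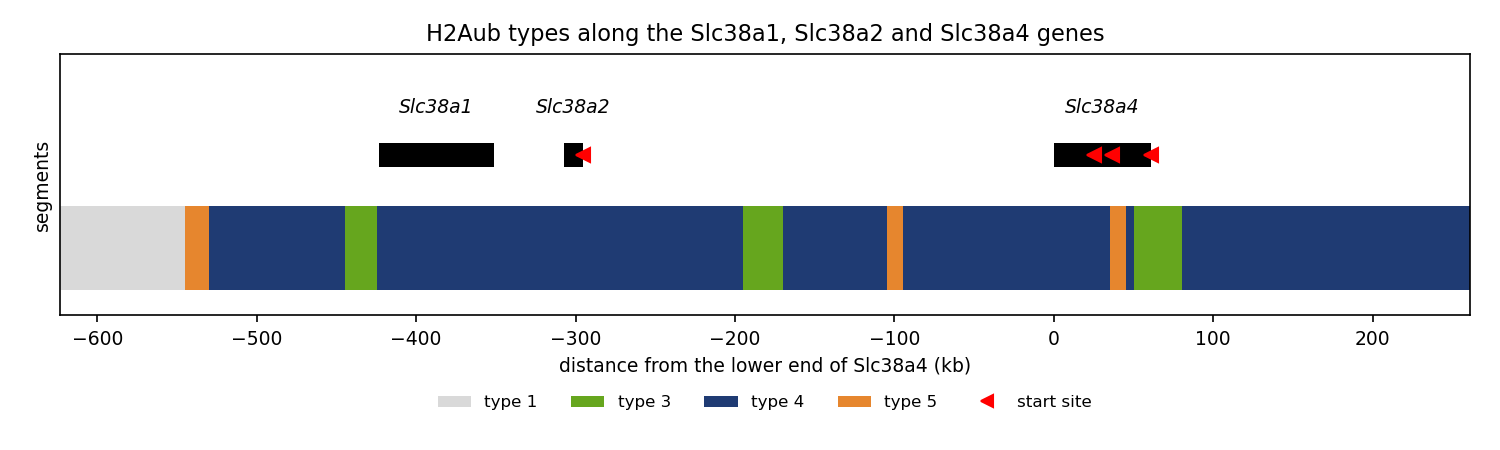
Types around the 3 transporter genes of chromosome 15, drawn along the distance in kb that the x axis gives, with colours for types 1 to 5, the gene bodies and the annotated start sites. Slc38a1 and Slc38a2 share a type 4 segment of 230 kb, and the 3 start sites of Slc38a4 lie in types 3, 5 and 4.

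Smoc1 encodes a secreted, calcium-binding protein of the extracellular matrix. Its body (chr12:81026808-81186414) lay in 2 type 4 segments, of 135 and 220 kb, split inside the gene by 10 kb of type 5. The flank on the higher side was 79.3% type 4 and that on the lower side 38.4%. The segment of 220 kb reached over all of Slc8a3, a sodium and calcium exchanger gene that lies 11.5 kb above Smoc1. The 6 other protein-coding neighbours were mostly type 1, among them Srsf5, a splicing factor gene, Slc10a1, a bile acid transporter gene, and Cox16, a gene for assembly of cytochrome oxidase. Both type 1 stretches next to the gene were set off from its type 4 by type 3, of 15 kb below and 30 kb above.

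Rbms1 encodes a protein that binds single-stranded DNA and RNA. The body (chr2:60750193-60963880) lay almost whole in a type 4 segment of 345 kb, and 2.02% of type 4 segments were at least as long. As at Gab1, types 4 and 5 alone filled the window, with 60.3% and 39.7%, and all 5 borders were between them. The flank beyond the promoter end was 3.06% type 4, and the flank at the other end 80%. The 2 start sites lay in different type 4 segments, the inner one in that of 345 kb. The outer one, at position 60963204, lay in a type 4 segment of only 10 kb, between 10 kb and 320 kb of type 5. Its RefSeq promoter window is printed because it marks that short island, with CG in capitals.
Rbms1 start site 1, chr2:60963155-60963454, minus strand: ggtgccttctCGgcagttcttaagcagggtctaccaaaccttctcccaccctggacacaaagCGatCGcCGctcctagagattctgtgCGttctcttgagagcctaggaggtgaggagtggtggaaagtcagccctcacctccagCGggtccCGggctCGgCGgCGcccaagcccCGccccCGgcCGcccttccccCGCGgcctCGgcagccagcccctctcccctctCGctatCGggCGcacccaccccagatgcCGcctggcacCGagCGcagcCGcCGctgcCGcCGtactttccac
It holds 26 CG dinucleotides, with a ratio of 0.777. Itgb6, which encodes an integrin subunit, and Pla2r1, a phospholipase receptor gene, were the protein-coding neighbours, and both were mostly type 4.

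Etv6 encodes a transcriptional repressor of the ETS family that blood stem cells need. The whole body (chr6:134035700-134270158) lay in a type 4 segment of 410 kb, and 1.24% of type 4 segments were at least as long. Below the gene the segments were short and mixed, with type 4 over 40.3% of the flank, and above it type 4 held 77.4%. The predicted gene Gm46977 and Bcl2l14, a gene of the BCL2 family, shared the segment at least in part and were mostly type 4. Lrp6, which encodes a co-receptor of Wnt ligands, was mostly type 1, and Kap, a gene of the kidney, mostly type 3.

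Runx1 encodes a transcription factor that the first blood stem cells need, and it is transcribed from a distal and a proximal promoter. Its body (chr16:92601466-92826074) spanned 2 type 4 segments, of 255 and 835 kb, with 25 kb of type 3 between them inside the gene. The segment of 835 kb (chr16:92735001-93570000) was the longest of all 4751 type 4 segments, which had a median of 40 kb. Runx1 was the only protein-coding gene it touched, among 10 annotated genes of which 8 were long noncoding RNA genes. This segment was singled out after its length had been seen. No type 5 and no type 1 occurred in the window, which was the only one of the 10 with type 2 (5.60%). The type 2 stretch lay over Rcan1, an inhibitor of calcineurin whose body was 47.2% type 2, and Clic6, a gene of the chloride channel family between Rcan1 and Runx1, was wholly type 4. The distal start site of Runx1 lay in the segment of 835 kb and the proximal one in that of 255 kb. Both RefSeq promoter windows are printed since they differ in CG content and not in type, with CG in capitals.
Runx1 start site 1, chr16:92826025-92826324, minus strand: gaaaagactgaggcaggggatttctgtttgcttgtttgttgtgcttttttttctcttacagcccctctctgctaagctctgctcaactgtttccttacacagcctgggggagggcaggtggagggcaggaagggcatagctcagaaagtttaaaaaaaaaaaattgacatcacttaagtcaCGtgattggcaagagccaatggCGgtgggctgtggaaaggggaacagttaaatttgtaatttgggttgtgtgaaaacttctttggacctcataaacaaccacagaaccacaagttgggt
Runx1 start site 2, chr16:92697280-92697579, minus strand: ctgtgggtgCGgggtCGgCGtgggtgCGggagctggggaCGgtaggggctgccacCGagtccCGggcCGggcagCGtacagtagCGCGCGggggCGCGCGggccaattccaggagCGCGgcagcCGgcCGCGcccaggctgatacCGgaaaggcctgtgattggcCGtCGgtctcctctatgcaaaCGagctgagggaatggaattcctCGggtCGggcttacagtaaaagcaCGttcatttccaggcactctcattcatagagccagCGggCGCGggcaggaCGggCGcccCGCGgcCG
The distal window (start site 1) holds 2 CG dinucleotides and has a ratio of 0.137, the lowest of the 17 windows of the 10 genes. The proximal window (start site 2) holds 35 and has a ratio of 1.01.

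Start sites were annotated for 8 of the 10 genes, with no entry for Smoc1 and Slc38a1. Of the 17 sites, 15 lay in type 4, against 15.3% of sites of protein-coding genes. The outermost site was in type 4 for 7 of the 8 genes, against 14.9%, and Slc38a4 was the other. Sfmbt2 thus had its starts in type 4 although type 5 held the larger part of its body. The CpG ratio was at least 0.6 in 11 of the 17 windows, against 48.9% of the windows of protein-coding genes. Several of these windows overlap or lie in 1 gene, so they are not 17 separate cases. The median ratio over the windows of protein-coding genes in type 4 was 0.481, between a highest median of 0.672 for type 1 and a lowest of 0.206 for type 5.

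Borders between types 4 and 5 recurred around these genes. At least 1 occurred in 9 of the 10 windows, with Runx1 as the exception, against 19.9% of protein-coding genes, 27.9% of those of 60 to 250 kb and 39.2% of those mostly in type 4. With the overlapping windows of chromosome 15 joined, there were 69 borders, of which 32 (46.4%) were between types 4 and 5 and 18 (26.1%) between types 3 and 4. Over the whole segmentation the shares were 11.4% and 14.6% of 31565 borders. The windows were rich in type 4 and the whole segmentation was not, so these shares are not like for like. Gab1 with 8 and Sfmbt2 with 7 had the most borders between types 4 and 5. No window held a border between types 1 and 4, a pair that made 0.605% of borders over the genome. Windows differed in their number of borders, with 14 for Sfmbt2 and 5 each for Slc38a2, Rbms1 and Runx1. Since windows differ in length, borders per 100 kb were 2.24 for Sfmbt2, 1.21 for Slc38a2, 0.815 for Rbms1 and 0.801 for Runx1. The median per 100 kb was 1.36 over the 10 genes and 1.49 over all protein-coding genes. In both sets the median window held 7 borders.

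Short stretches of type 5 stood inside 4 of the genes. A type 5 segment of 10 kb overlapped the bodies of Jade1, Slc38a4, Smoc1 and Rbms1, a pattern picked out after the values had been seen. Type 5 segments of 10 kb or less overlapped 0.905% of protein-coding genes, 3.25% of those mostly in type 4 and 2.43% of those of 60 to 250 kb. Segments this short made up 13.4% of all 3777 type 5 segments. The segment in Slc38a4 held a start site, and those in Jade1, Smoc1 and Rbms1 held none of the annotated sites, with no site listed for Smoc1.

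The share of the 10 genes in type 4 was lower at 200 kb than at 100 kb on both sides, with 1 gene worth 10 points. At 100 kb below the lower end 80% of the 10 genes were in type 4, and at 200 kb 40%. On the higher side the values were 60% at 100 kb and 30% at 200 kb. Next to the bodies the share was 80% on the lower side and 70% on the higher side. The highest value was 90%, at 80 kb below the lower end. Over all protein-coding genes the share ran between 13.7% and 17.2% over both flanks.

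**Figure D4:**
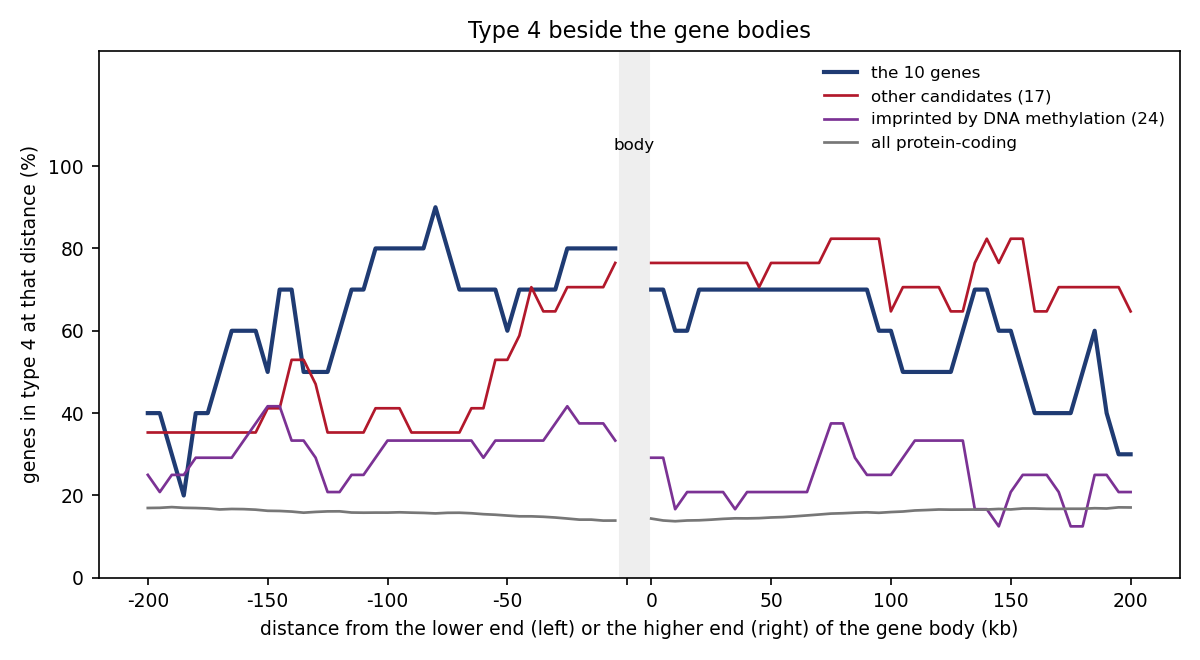
Percent of genes in type 4 (y axis) by distance in kb below the lower end and above the higher end of the gene body (x axis), for the 10 genes and for the comparison sets. The 10 genes are at 80% at 100 kb below and 30% at 200 kb above, with 1 gene worth 10 points. Their highest value is 90%, at 80 kb below. The line of all protein-coding genes stays between 13.7% and 17.2%.

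Neighbours were more mixed than the genes themselves. The windows held 26 other protein-coding genes, of which 11 were mostly type 1, 9 type 4, 4 type 5, 1 type 2 and 1 type 3. Over all protein-coding genes the shares were 37.2%, 14.0%, 9.53%, 5.44% and 33.8% in that order. The window of Smoc1 alone held 6 of the neighbours in type 1. Several neighbours share a segment, so they are not 26 separate cases. Among the 46 long noncoding RNA genes of the windows, 36 were mostly type 4 and 6 type 5, while 25.4% of all long noncoding RNA genes were mostly type 4. Several of these noncoding genes share a segment with each other or with one of the 10 genes, so they are not 46 separate cases.

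Paralogs of the 10 genes, which share their protein families and not their positions, were of several types. Of 15 paralogs, 5 were mostly type 1, 5 type 3, 4 type 4 (26.7%, against 14.0% of protein-coding genes) and 1 type 5. At least 50% of the window was type 4 for 3 of them (Rbms3, Runx2 and Runx3), against 7.88% of protein-coding genes, and the median share was 5.99%, against 6.63%. The 4 in type 4 were Slc38a3, Rbms3, Runx2 and Runx3. Gab2, Sfmbt1 and Rbms2 were mostly type 1, Jade2 and Smoc2 mostly type 3, and Slc38a11 wholly type 5.

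Other genes proposed as imprinted or silenced through maternal H3K27me3 were closer to the 10. Of 17 such genes, taken from general knowledge, 13 were mostly type 4 (76.5%, against 14.0% of protein-coding genes). The others were 2 of type 5 (Bbx and Myoz2), 1 of type 1 (Rftn2) and 1 of type 3 (Matn1). The median type 4 share of their windows was 61.2%, against 6.63% over all protein-coding genes. The share ran up to 100% for Prox1, a homeobox gene of lymphatic vessels, 95.5% for Tle3, a Groucho co-repressor gene, and 93.0% for Gadl1. Its lowest value was 10.3%, for Rftn2. Clic6 stands in this list and also in the window of Runx1. Of 24 genes imprinted through DNA methylation, 8 were mostly type 4 (33.3%, against 14.0% of protein-coding genes). The others were 7 of type 3, 5 of type 1, 3 of type 2 and 1 of type 5. The median type 4 share of these 24 windows was 21.5%, again above the 6.63% over all protein-coding genes. The lists differ in size and gene length, some of their genes are neighbours, and none of these differences was tested.

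**Figure D5:**
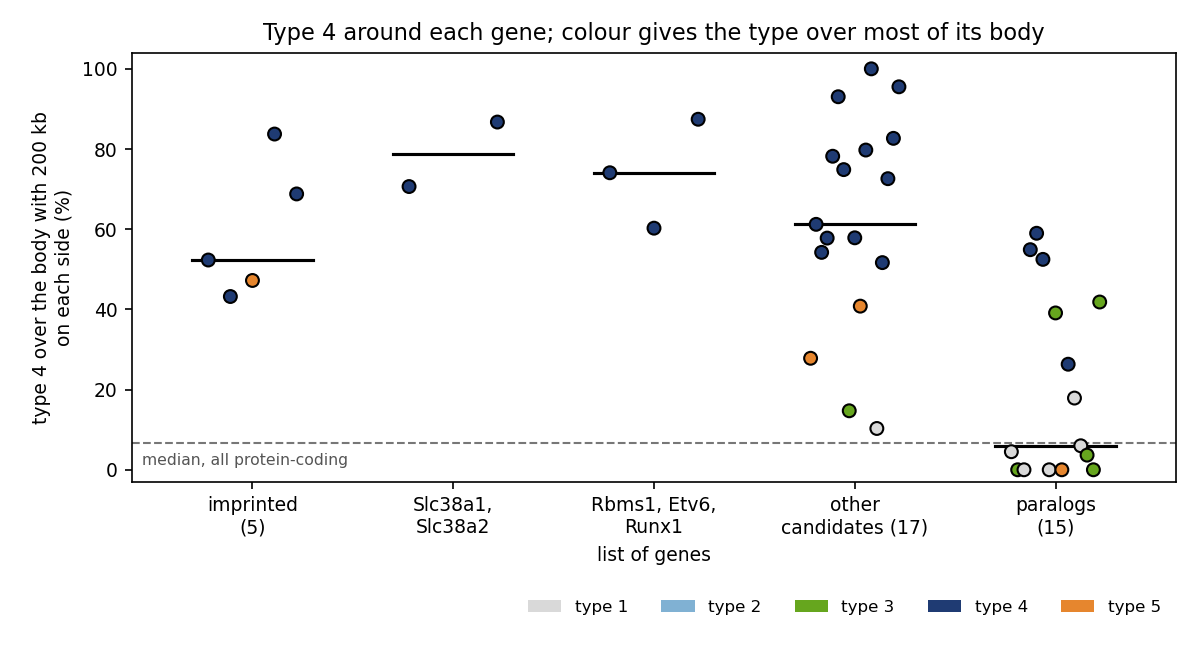
Type 4 share of the body with 200 kb on each side, in percent (y axis), for each gene of 5 lists (x axis), with a point per gene coloured by the type over most of its body, a solid line at each list's median and a dashed line at the median of all protein-coding genes. The medians are 52.3% for the imprinted genes, 78.7% for Slc38a1 with Slc38a2, 74.1% for Rbms1, Etv6 and Runx1, 61.2% for the other candidates, 5.99% for the paralogs and 6.63% for all protein-coding genes.

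The 10 windows were also compared with each other by the part of the 5 shares that would have to move to make them equal. Over the 45 pairs the median was 35.4 percentage points. The closest pairs were Slc38a4 with Slc38a2 (2.99 points), whose windows overlap, and Smoc1 with Slc38a1 (4.76 points), which are on different chromosomes. The farthest pair was Jade1 with Runx1 (55.7 points). Among the other protein-coding genes, the nearest to Gab1 were Plcz1 (0.237 points), the sperm phospholipase gene that triggers egg activation, then Casd1 and Irx1. The nearest to Rbms1 were Tnfsf8 (0.117 points), Stc1 and Capza3. Slc38a4 was nearest to Gm46320, Tmx1 and Krt15, Slc38a2 to Maml3, Actrt2 and Adra2c, and Runx1 to Clic5, Tgfbr2 and Enpp4. Smoc1 was nearest to Rnf145, Uri1 and Tinagl1, Slc38a1 to Gzmb, Snapc4 and Entr1, and Etv6 to Zfp354b, Mcoln2 and St8sia2. Sfmbt2 was nearest to Krtap31-2 (3.41 points), Abca1 and Epcam. Jade1 stood farthest from its nearest gene, Fzd6 (5.05 points), with Stfa3 and Spata6 next. With 20558 genes and 5 shares, some gene lies near most windows, and a small distance says nothing of the order of the segments.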

How the data were processed

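The 29 CUT&RUN libraries measured H2Aub or H3K27me3. The submitters' processing notes name Bowtie2 2.3.4.3, deepTools 3.0.2, Trim Galore 0.4.5 and Picard 2.8.0, and the mm10 build. The file that the authors deposited holds 1 value per segment, a ChromHMM type label, 1 to 5, which is a category and no quantity. The sources used here do not give ChromHMM's version, bin size or input libraries, and the depth is unknown.

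All segment borders were multiples of 5 kb, so bins of 5 kb were used (492539 bins, chromosomes 1 to 19). In 261 bins (0.053%) 2 segments overlapped and the shorter one was taken. Gene positions came from NCBI RefSeq (GRCm38.p6), without 333 genes on scaffolds. Backgrounds of genes of 60 to 250 kb were added after the values had been seen. A gene's type is that with the largest share of its body. Promoter windows and start sites came from RefSeq.

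The lists, like the genes, were chosen with earlier results of these data known. The text names the 10 genes, protein-coding genes in their windows, all paralogs and other candidates as needed, and the 3 protein-coding genes nearest to each by window shares. Genes imprinted through DNA methylation are given as counts. Other ends, margins, flanks and backgrounds were tried as alternatives. Python 3.11.15, numpy 2.4.6, pandas 2.3.3 and matplotlib 3.10.9 were used, and the functions were tested on simulated data.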

Additional observations from a re-analysis of the deposited data

How the results depend on the processing

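The median type 4 share of the window, 69.7% over the 10 genes against 6.63% over all protein-coding genes, depended on the flank. It was 83.7% with 100 kb on each side (all genes 0%), 42.9% with 500 kb (all genes 11.7%) and 58.9% over the flanks alone (all genes 6.25%). All 10 genes were above the median of all protein-coding genes at each of these settings. With 100 kb that median was 0%, so any type 4 at all was enough. Only the flanks alone leave out the bodies, which were mostly type 4 in 9 of the 10 genes. The count of genes with at least 50% of the window in type 4 was 8 (all genes 7.88%, genes mostly type 4 37.4%). It was 8 with 100 kb (all genes 9.93%), 4 with 500 kb (all genes 5.17%) and 7 over the flanks alone (all genes 8.2%). Of the 10 genes, 9 were in type 4 by the body, and 7 to 9 were when the lower end, the higher end, the middle, the body with 5 kb on each side or the longer of overlapping segments set the type. Of 8 genes with an annotated start site, 7 were in type 4 by that site, and 8 of 9 were with genes within 200 kb counted once. Over single genes, 50 of 58 alternatives gave the same type, and the other 8 fell in 5 genes. With segments of 10 kb or less given to the longer neighbour, 6 genes had a border between types 4 and 5 in place of 9 (all genes 15.8%). The median number of borders was then 5.5 in place of 7, and over all protein-coding genes it was 5 in place of 7. A shorter segment than 1 bin, or a border within a bin, cannot be seen, and counting error is unknown because the files used give no depth. No paired analysis was possible because the segmentation has no value per library and no result comes from a test.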
